A study of Homo sapiens with 6 samples.

Results

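Serum response factor (SRF) and 9 contractile genes known as its targets were followed in a breast cancer line under a combined treatment. They are the smooth-muscle-type actin gene ACTA2, transgelin (TAGLN), the calponin genes CNN1, CNN2 and CNN3, the myosin regulatory light chain gene MYL9, and the tropomyosin genes TPM1, TPM2 and TPM4. They were chosen by gene symbol, and the 10 were found among 46427 genes, with 75 transcripts among 170322. The cells were MDA-MB-231/RR, a form of MDA-MB-231, a triple-negative human breast cancer line, that resists radiation. RNA sequencing covered 3 libraries of cells given ortho-topolin riboside (oTR, a plant cytokinin riboside) together with melatonin, the pineal hormone, and 3 libraries of control cells. Every library came from this 1 line, trypsinized when highly confluent, and doses, exposure times and cells given a single compound are not analysed here. The series asks whether the combination alters the transcriptome of these cells.

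SRF is a transcription factor that binds, as a dimer, a short A/T-rich element named the CArG box. It works with 2 groups of cofactors. The myocardin-related factors MRTFA and MRTFB are held back by unpolymerized actin and, once released, drive genes of the actin cytoskeleton. The ternary complex factors ELK1, ELK3 and ELK4 respond to MAP kinase signalling and drive immediate early genes such as FOS. Calponins, transgelin and tropomyosins lie along actin filaments, and the regulatory light chain sets the activity of myosin II on them. In smooth muscle these genes build the contractile apparatus, and in carcinoma cells many of them act in stress fibres, adhesion and migration.

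The promoters of SRF, CNN2 and TPM4 are shown because each holds a CArG box, the element SRF itself binds, within the window from 250 bases before to 50 bases after an annotated start. Windows and letters are from RefSeq on GRCh38.p14, read 5′ to 3′ on the gene's strand, with the CArG boxes in capitals. All of these lie on the plus strand. The form of the box, CC and GG with only A or T between them, is the same on both strands. A match on one strand is therefore a match on the other, though its letters may differ. SRF's window at chr6:43171019-43171318 holds 2 boxes, whose first bases lie 30 and 10 bases before the start. The window of CNN2 at chr19:1026358-1026657 holds a box that begins 89 bases before the start, and that of TPM4 at chr19:16067288-16067587 a box that begins 173 bases before it.
SRF: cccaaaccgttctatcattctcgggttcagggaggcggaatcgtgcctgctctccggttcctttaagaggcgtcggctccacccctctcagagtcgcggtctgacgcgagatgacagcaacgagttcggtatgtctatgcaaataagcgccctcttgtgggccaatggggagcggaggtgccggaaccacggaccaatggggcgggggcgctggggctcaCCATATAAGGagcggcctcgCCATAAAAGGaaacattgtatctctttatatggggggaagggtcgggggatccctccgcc
CNN2: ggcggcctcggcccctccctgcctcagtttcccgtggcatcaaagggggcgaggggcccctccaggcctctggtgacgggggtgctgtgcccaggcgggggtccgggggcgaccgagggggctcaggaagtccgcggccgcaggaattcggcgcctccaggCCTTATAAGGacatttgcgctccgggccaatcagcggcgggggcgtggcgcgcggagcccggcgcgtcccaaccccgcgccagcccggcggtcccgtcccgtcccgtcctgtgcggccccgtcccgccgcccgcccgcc
TPM4: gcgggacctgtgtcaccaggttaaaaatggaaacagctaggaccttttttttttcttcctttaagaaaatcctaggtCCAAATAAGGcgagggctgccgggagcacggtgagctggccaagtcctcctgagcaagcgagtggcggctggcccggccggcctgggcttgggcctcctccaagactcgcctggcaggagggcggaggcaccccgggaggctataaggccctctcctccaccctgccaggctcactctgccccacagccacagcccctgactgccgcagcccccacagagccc

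A box was found in 454 of 35116 windows, or 1.29%, and 2 or more boxes in 11 windows, or 0.0313%, among which is that of SRF. By gene, 438 of 27305 genes (1.6%) had a box, against 3 of the 8 genes of the group that have a window in the table. The letters were not found in the windows of ACTA2, CNN1, CNN3, TPM1 and TPM2, which says only that this stretch does not hold them. The search took the exact form of 10 letters, CC and GG with only A or T between them, and boxes that depart from it were not sought. TAGLN and MYL9 have no window, and the only window of TPM1 lies at its internal start. A match is a run of letters, not a site shown to be bound. Of 175 tested genes with a box outside the group, 37 were higher and 29 lower in co-treated cells, with a median log2 fold change of 0.02, and of all 11590 tested genes with a window 2146 were higher and 2190 lower.

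The libraries held 53310808, 50569611 and 72204161 estimated counts in the co-treated cells and 56521572, 72309015 and 71937572 in the controls. After a filter on low counts 16557 genes were tested with edgeR's quasi-likelihood test, and adjusted p-values are Benjamini-Hochberg values over all of them, with a threshold of 0.05. Of these genes 2835 (17.1%) were lower and 2743 (16.6%) higher in co-treated cells, with a median log2 fold change of 0.00. Counting both directions, 33.7% passed. The first principal component (41% of the variance) set co-treated apart from control libraries. The labels do not say that replicates were separate cultures, so the spread behind each p-value is that between these libraries and may be technical.

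The cells carried the markers of the line. VIM, CD44 and EGFR were abundant, PGR was at 0 in all 6 libraries, and ESR1 and CDH1 were near 0. ERBB2 RNA was present, at 70.1 ± 3.66 CPM in co-treated cells and 65.3 ± 3.37 CPM in controls. EGFR was higher, with 910.3 ± 39.2 CPM in co-treated cells and 759.1 ± 17.1 CPM in controls (edgeR adjusted p = 0.00117), and the scarce EPCAM was lower, with 0.129 ± 0.0581 CPM in co-treated cells and 0.313 ± 0.0997 CPM in controls (edgeR adjusted p = 0.0415). Of 10 smooth muscle markers outside the group, ITGA8 and PLN were at 0 in all 6 libraries and 7 stayed below 1 TPM in each library (TPM, as a unit, is transcripts per 1000000, scaled for length; the unit is called TPM units here, since TPM1, TPM2 and TPM4 are genes). Their summed level was 125 to 131 TPM units in co-treated cells and 117 to 134 in controls, and came mostly from SMTN, a smoothelin that this line also makes. Of the 4 that could be tested, 2 were higher and none lower, beside 16.6% higher and 17.1% lower over all genes tested. These were SYNM and the scarce SYNPO2, at 0.783 ± 0.218 CPM in co-treated cells and 0.348 ± 0.12 CPM in controls. SMTN and DES did not pass, with log2 fold changes of -0.14 and -0.21, and the groups of SMTN were apart, with co-treated cells lower. Of 10 fibroblast markers COL1A2, DCN, FAP, POSTN and THY1 were at 0 throughout and 8 stayed below 1 on the same scale; the sum was 9.74 to 10.1 in co-treated cells and 9.80 to 11.9 in controls. Of the 4 that could be tested, COL1A1 was lower, with 17.4 ± 1.05 CPM in co-treated cells and 21.7 ± 1.92 CPM in controls (edgeR adjusted p = 0.0091). PDGFRA, PDGFRB and the scarce COL3A1 did not pass, with log2 fold changes of 0.57, -0.06 and 1.26. The groups of COL3A1 were apart, with co-treated cells higher. Any part of these cells in the values of the contractile genes was not tested. In RNA from whole cultures, fewer cells of a type and less RNA per cell cannot be told apart.

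All 10 genes passed the filter and all 10 had a log2 fold change below 0. SRF, TAGLN, CNN2, CNN3, MYL9, TPM2 and TPM4, which is 7 of the 10, were lower in co-treated cells at the threshold, against 17.1% of all genes tested, and none was higher. ACTA2, CNN1 and TPM1 did not pass. The median log2 fold change of the 10 was -0.20, within a range from -0.96 to -0.10, so most changes were small. In the same 7 genes no co-treated library reached the lowest control library in counts per 1000000 (CPM), a pattern found in 24.1% of all genes tested (23.3% were apart in the other direction). In TPM units the groups stayed apart in SRF, TAGLN, CNN2 and TPM2 and overlapped in CNN3, MYL9 and TPM4. How often groups are apart in TPM units over all genes was not counted.

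**Figure D1:**
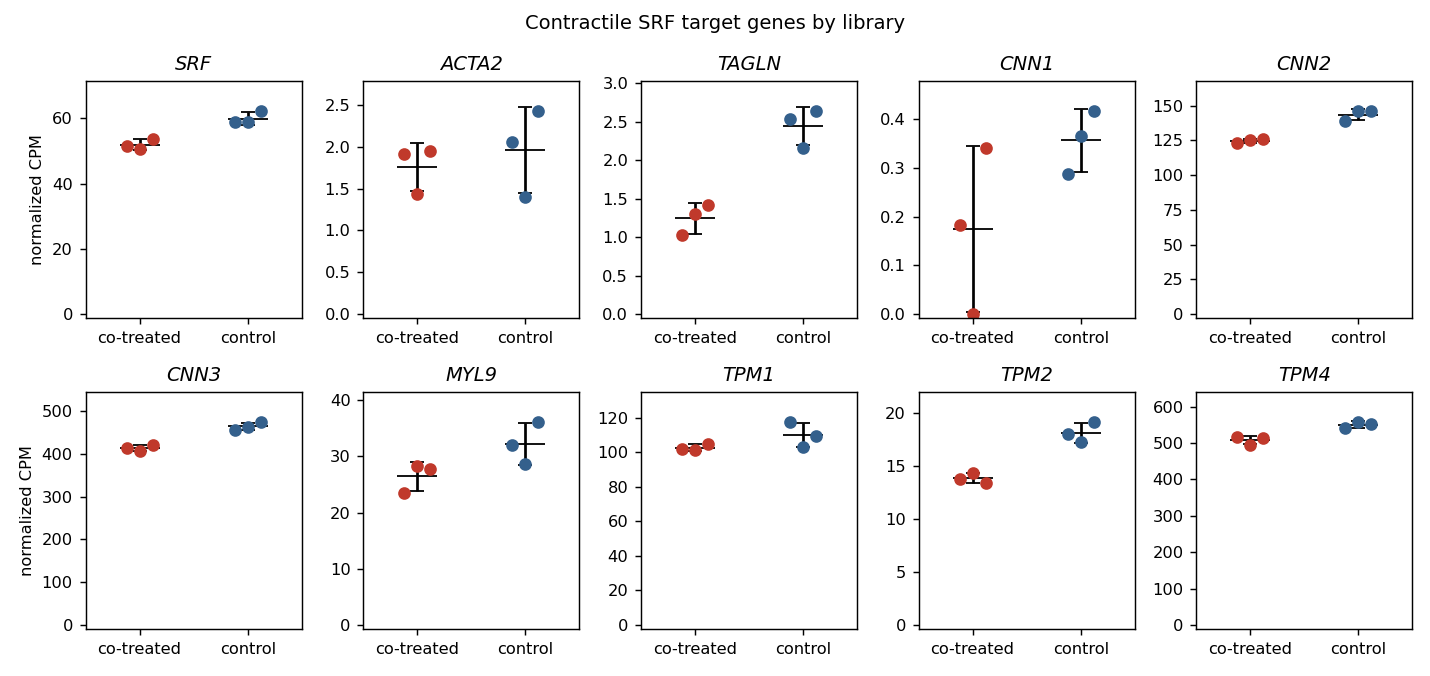
Normalized CPM (vertical axes, each from 0) of the 10 genes in 3 co-treated (red) and 3 control (blue) libraries; points are libraries, horizontal lines means and bars SD. The groups are apart in SRF, TAGLN, CNN2, CNN3, MYL9, TPM2 and TPM4 and overlap in ACTA2, CNN1 and TPM1, and TAGLN shows the widest gap for its size among the genes whose groups are apart, 1.25 ± 0.199 CPM in co-treated and 2.45 ± 0.251 CPM in control libraries.

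The genes differed widely in abundance. Per length, in TPM units, the order in co-treated cells was CNN3 with 481.6 ± 10.1, TPM4 with 397.3 ± 8.53, CNN2 with 134.9 ± 0.866, TPM1 with 130.4 ± 2.70, SRF with 28.6 ± 0.784, TPM2 with 26.3 ± 1.41, MYL9 with 22.1 ± 1.88, ACTA2 with 2.31 ± 0.379, TAGLN with 0.736 ± 0.108 and CNN1 with 0.198 (SD, n = 3 libraries). Within the co-treated libraries no pair of neighbours in this order overlapped. In control cells 2 pairs overlapped: CNN2 with 141.6 ± 3.65 and TPM1 with 131.9 ± 10.4, and SRF with 30.1 ± 0.243 and TPM2 with 31.0 ± 1.44. The classical smooth muscle genes ACTA2, TAGLN and CNN1 were thus the least abundant of the group here, and the calponin and tropomyosin genes that non-muscle cells use were the most abundant.

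SRF, the factor itself, was lower in co-treated cells. Its normalized level was 51.4, 50.7 and 53.9 CPM in the co-treated libraries, against 58.8, 58.9 and 62.2 CPM in the controls. Every co-treated library was below every control, and the difference of the means, 52.0 ± 1.66 CPM in co-treated cells against 60.0 ± 1.89 CPM in controls, was larger than the spread within either group. The fitted log2 fold change was -0.21 ± 0.05 (SE; 95% interval -0.31 to -0.10; edgeR adjusted p = 0.00736), a decrease of 13.3%. SRF (gene 6722) lies at chr6:43171269-43181506 on GRCh38.

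ACTA2, which encodes the actin of smooth muscle and of myofibroblasts, was scarce. It had 104, 74 and 143 estimated counts, or 1.91, 1.43 and 1.95 CPM, in co-treated libraries, and 114, 100 and 169 counts, or 2.05, 1.40 and 2.42 CPM, in controls. The groups overlapped, and the log2 fold change of -0.14 ± 0.21 had a 95% interval from -0.61 to 0.32 (edgeR adjusted p = 0.635), which leaves room for a change either way. Its sign turned to 0.04 when control library 3 was left out. NM_001613, the ACTA2 transcript that starts at chr10:88952773, had 0 counts in every library. All ACTA2 counts were assigned to NM_001141945 and NM_001320855, which start at chr10:88991397. ACTA2 (gene 59) lies at chr10:88935074-88991397 and overlaps FAS, a death receptor gene at 13.0 ± 0.678 CPM in co-treated cells and 11.4 ± 1.08 CPM in controls (edgeR adjusted p = 0.0997), and its antisense gene ACTA2-AS1. The sources used here do not say whether counting used strand, and without it reads of such partners cannot be told apart.

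TAGLN, an actin-bundling protein of the calponin family and a standard reporter of SRF activity in smooth muscle, had the largest change among the called genes of the group. Its counts were 56, 67 and 104 in co-treated libraries, against 141, 154 and 184 in controls. On the normalized scale this was 1.03, 1.30 and 1.42 CPM in co-treated cells and 2.54, 2.16 and 2.64 CPM in controls. The highest co-treated library stayed well under the lowest control, and co-treated cells had 0.513 times the control level. The log2 fold change was -0.96 ± 0.17 (SE; 95% interval -1.33 to -0.60; edgeR adjusted p = 0.00138), and it passed the threshold under all 17 alternative settings and left-out libraries, with values from -1.07 to -0.43. TAGLN (gene 6876; chr11:117199294-117207465) overlaps the protease gene PCSK7 over 6310 bases. PCSK7 had 21.1 ± 1.29 CPM in co-treated cells and 22.6 ± 1.49 CPM in controls and did not pass (log2 fold change -0.11 ± 0.07, edgeR adjusted p = 0.28). Its part in the TAGLN values was not tested.

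Of the calponins, actin-binding proteins whose smooth muscle form restrains myosin, the smooth muscle form was nearly absent and the other two were lower. CNN1 had 10, 0 and 25 counts in co-treated libraries, against 16, 26 and 29 in controls, or 0.184, 0 and 0.340 CPM in co-treated libraries against 0.288, 0.365 and 0.415 CPM in controls. A count of 0 in co-treated library 2 allows a level of up to 0.058 CPM, by counting error only. The groups overlapped and the interval of the log2 fold change, -2.33 to 0.46, shows that a difference was not detectable at this depth (edgeR adjusted p = 0.287).

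CNN2, a calponin of non-muscle cells, had 123.2, 125.4 and 125.9 CPM in co-treated libraries, against 138.9, 145.8 and 145.8 CPM in controls. CNN3, the acidic calponin and the most abundant gene of the group, had 414.6, 406.0 and 421.0 CPM in co-treated libraries, against 456.7, 462.2 and 474.7 CPM in controls. On the CPM scale the groups were well apart in both genes, with little spread within each. In TPM units the groups of CNN3 overlapped. The log2 fold change was -0.20 ± 0.04 for CNN2 (edgeR adjusted p = 0.00398) and -0.17 ± 0.04 for CNN3 (edgeR adjusted p = 0.00925). CNN1, CNN2 and CNN3 lie at chr19:11538775-11550323, chr19:1026608-1039065 and chr1:94896949-94927223.

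MYL9, the regulatory light chain of smooth muscle and non-muscle myosin II, had 23.5, 28.2 and 27.7 CPM in co-treated libraries, against 32.0, 28.6 and 36.1 CPM in controls. The groups did not overlap, but co-treated library 2 and control library 2 were nearly equal. The log2 fold change was -0.28 ± 0.09 (95% interval -0.49 to -0.08; edgeR adjusted p = 0.0353). This call rested on single libraries: without control library 1 the adjusted p was 0.0744, without control library 3 0.136, without co-treated library 1 0.103 and without co-treated library 3 0.0526, all with a log2 fold change between -0.32 and -0.19. MYL9 (gene 10398) lies at chr20:36541519-36551447.

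The tropomyosins, coiled-coil proteins that polymerize along actin and set which motors and severing proteins reach it, differed in how far they moved. TPM2 had 13.7, 14.4 and 13.4 CPM in co-treated libraries, against 18.0, 17.3 and 19.1 CPM in controls. The groups were far apart relative to their spread, and the log2 fold change was -0.39 ± 0.07 (SE; 95% interval -0.54 to -0.25; edgeR adjusted p = 0.00126), a decrease of 23.8%. TPM2, like TAGLN, passed the threshold under all 17 alternatives, with values from -0.43 to -0.23.

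TPM4, the most abundant tropomyosin of the group, had 517.1, 495.9 and 513.9 CPM in co-treated libraries, against 541.0, 557.7 and 553.9 CPM in controls. The groups were apart but the change was small, with a log2 fold change of -0.11 ± 0.04 (edgeR adjusted p = 0.0488). The call sat at the threshold: it was lost in each of the 6 fits that left out a library (log2 fold change -0.13 to -0.10, adjusted p 0.0505 to 0.141). TPM1 had 102.0, 101.3 and 104.9 CPM in co-treated libraries and 117.6, 103.4 and 109.4 CPM in controls. Control library 2 lay below co-treated library 3, so the groups overlapped, and the log2 fold change of -0.10 ± 0.05 did not pass (95% interval -0.21 to 0.01; edgeR adjusted p = 0.165). TPM1 lies at chr15:63042698-63071915, TPM2 at chr9:35681993-35690056 and TPM4 at chr19:16067507-16103005. The 12 pseudogenes named after genes of the group reached at most 0.27 CPM, and 9 of them were at 0 in all 6 libraries.

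How far the genes fell depended on the scale. The main scale divides counts by factors that place the median gene at no change. With library size alone, the median over all genes tested was 0.06, the split over all genes was 2065 lower and 3816 higher, and 4 of the 10 genes were lower (SRF, TAGLN, CNN2 and TPM2), against 12.5% of all genes (23% were higher). On the authors' TPM units, as log2(value + 1) with limma, the median over all genes was 0.09, the split was 1339 lower and 4516 higher, and TAGLN and TPM2 were lower, against 8.09% of all genes (27.3% were higher). The log2 fold change on that scale, with 0.1 added in place of 1, was -0.78 for TAGLN (limma adjusted p = 0.00976) and -0.24 for TPM2 (limma adjusted p = 0.018), against -0.07 for SRF (limma adjusted p = 0.259), -0.07 for CNN2 (limma adjusted p = 0.183), -0.04 for CNN3 (limma adjusted p = 0.487) and -0.15 for MYL9 (limma adjusted p = 0.229).

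Set against the median of all genes on the same scale, the median of the 10 was below 0 each time. It was -0.21 relative to all genes with library size alone, -0.16 on the log2(TPM units + 1) scale and -0.10 on that scale without a filter on low values. On the log2(TPM units + 0.1) scale, whose median over all genes was 0.12, it was -0.20. When a trend of the log2 ratio with gene length was removed, the values were -0.25 for SRF, -0.99 for TAGLN, -0.29 for TPM2 and -0.27 for MYL9, and each passed the edgeR threshold. SRF, CNN2, CNN3, MYL9 and TPM4 were thus called on some scales and not on others, and TAGLN and TPM2 on every scale tried.

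**Figure D2:**
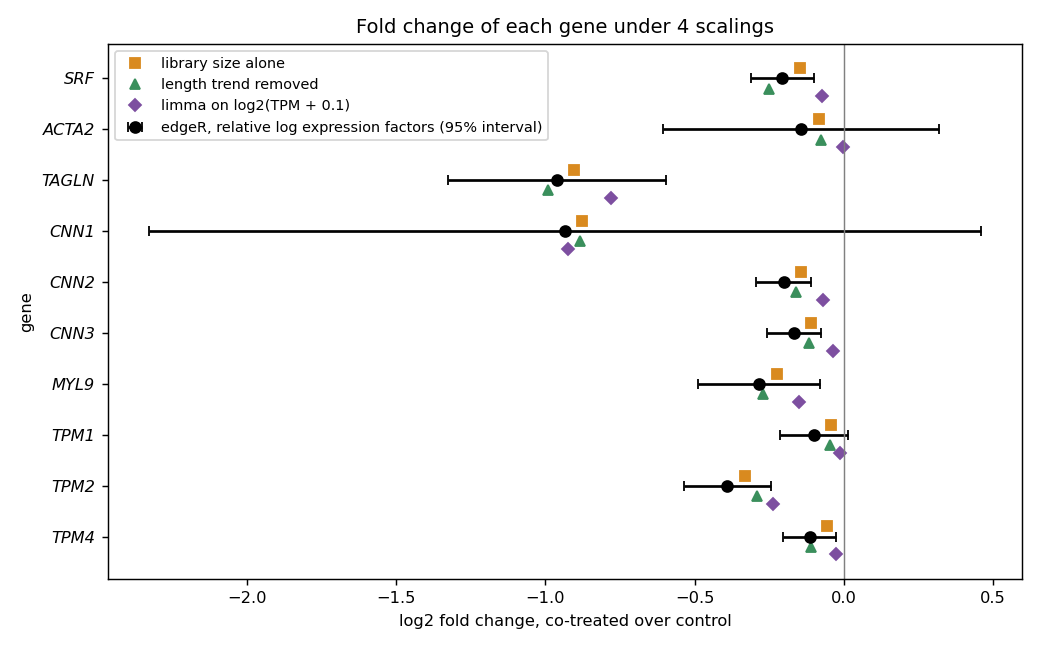
Log2 fold change of each gene, co-treated over control (horizontal axis), with edgeR's 95% interval under relative log expression factors (black), and the value with library size alone (squares), with the length trend removed (triangles) and from limma on log2(TPM units + 0.1) (diamonds). All values lie below 0, from -0.10 for TPM1 to -0.96 for TAGLN in the black points, the intervals of ACTA2, CNN1 and TPM1 cross 0, and the diamonds lie nearest to 0 for all genes but CNN1.

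Shares within each protein family differed little for most genes of the group. Of the summed TPM units of the tropomyosin genes, TPM2 made up 2.82% ± 0.177 in co-treated cells and 3.26% ± 0.270 in controls, TPM1 14% ± 0.255 in co-treated cells and 13.9% ± 0.959 in controls, TPM4 42.6% ± 0.520 in co-treated cells and 42.6% ± 1.82 in controls, and TPM3, the ubiquitous tropomyosin gene outside the group, 40.6% ± 0.291 in co-treated cells and 40.2% ± 1.27 in controls (SD, n = 3 each). For TPM2 the libraries did not overlap, with 2.86%, 2.97% and 2.63% in co-treated cells against 3.10%, 3.12% and 3.58% in controls. For the other tropomyosins they did. The 4 genes summed to 932.3 ± 9.34 TPM units in co-treated cells and 950.6 ± 34.8 in controls, a difference within the spread of the controls.

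CNN3 supplied 78.1% ± 0.34 of calponin transcripts in co-treated cells and 77.7% ± 0.337 in controls, CNN2 21.9% ± 0.364 in co-treated cells and 22.3% ± 0.333 in controls, and CNN1 under 0.07% in every library. MYL9 was a small part of the regulatory light chains, at 2.42% ± 0.274 in co-treated cells and 2.66% ± 0.165 in controls, with the groups overlapping. The non-muscle gene MYL12A had 31.7% ± 0.978 in co-treated cells and 33.1% ± 0.327 in controls, and MYL12B 65.9% ± 0.813 in co-treated cells and 64.3% ± 0.374 in controls, without overlap in either. ACTA2 was 0.0286% of actin transcripts in both groups. The cytoplasmic actins shifted between themselves: ACTB was 55.4% ± 0.0984 of actin transcripts in co-treated cells and 60.0% ± 0.470 in controls, and ACTG1 44.6% ± 0.105 in co-treated cells and 40.0% ± 0.465 in controls, with no overlap between the groups.

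**Figure D3:**
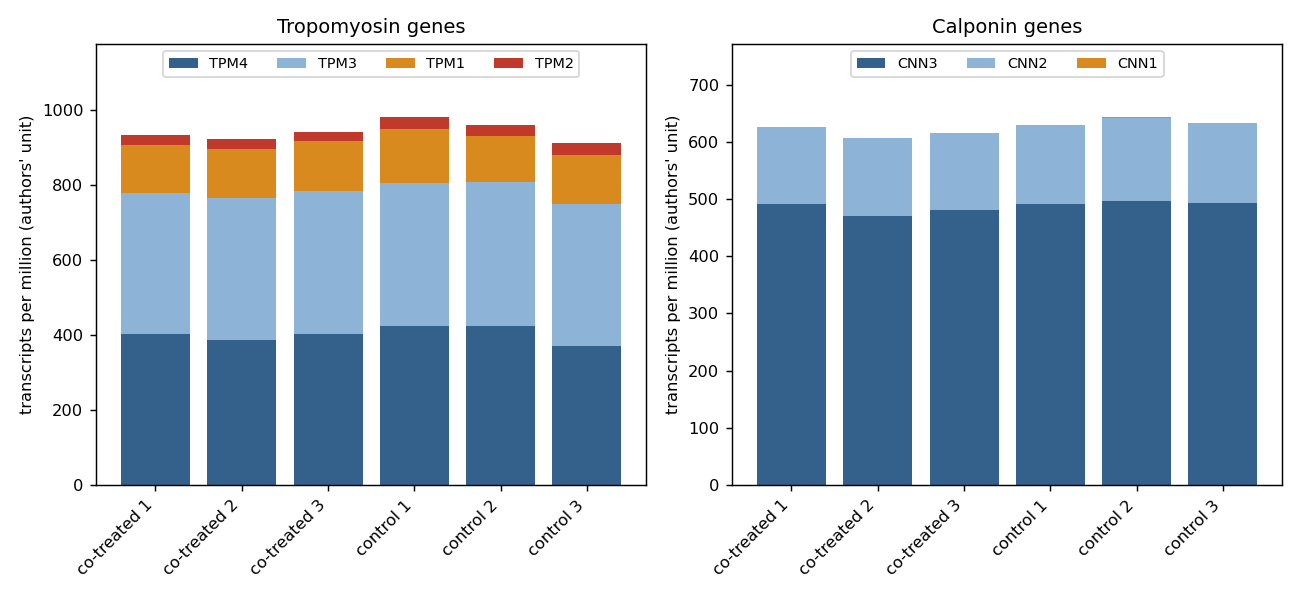
Levels in TPM units (vertical axes) of the tropomyosin genes (left) and calponin genes (right), stacked, in 3 co-treated and 3 control libraries. TPM4 and TPM3 make up most of the tropomyosins and CNN3 most of the calponins in every library; TPM2, at the top of the left bars, is 2.82% of the sum in co-treated cells and 3.26% in controls, and CNN1 is too low to see.

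Transcripts of the group were examined for changes in level and in usage. Of the 75 transcripts 49 had a count in some library and 45 were tested with limma's voom, and none passed, against 3 of 65552 transcripts overall (0.00458%). At an unadjusted p under 0.05 there were 4 of the 45, the main transcripts of CNN2, CNN3 and TAGLN and a predicted transcript of TPM2. Over all transcripts there were 6533 of 65552, so the share in the group was not above that of all transcripts. All 4 had log2 fold changes below 0, with adjusted p from 0.18 to 0.493 (limma). Reads shared between transcripts were divided by an estimate, so the shares of single transcripts vary more than the gene totals do.

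Most genes were served by a single transcript. NM_001839 held 95.2% to 96.1% of CNN3 counts in co-treated libraries and 95.3% to 95.6% in controls, and NM_006097 held 94.8% to 95.5% of MYL9 counts in co-treated libraries and 95.1% to 97.3% in controls. NM_003131, the full-length SRF transcript, held 94.2%, 99.9% and 99.9% in co-treated libraries and 97.6%, 98% and 99.7% in controls. NM_004368 held 84.3% to 91.2% of CNN2 counts in co-treated libraries and 85.8% to 91.1% in controls. In each of these the groups overlapped. They did not in the minor CNN2 transcript NM_001303499, with 5.99%, 6.22% and 5.74% in co-treated libraries against 4.77%, 5.65% and 3.56% in controls (limma diffSplice adjusted p = 0.96).

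TPM1 and TPM4 make long and short proteins from separate starts, and the long ones include those of muscle. TPM1 counts came almost wholly from its internal start. The 20 transcripts that begin upstream, at chr15:63042698-63042747, had 8 counts in control library 1 (0.123% of the gene) and 0 in the 5 other libraries, and the 12 that begin at chr15:63048451-63048489 held the rest. Among these the transcript named Tpm1.9, NM_001330344, had 47.5%, 56.2% and 58.0% of TPM1 counts in co-treated libraries and 56.1%, 53.4% and 61.0% in controls. Tpm1.8, NM_001301289, had 12.4%, 11.7% and 11% in co-treated libraries against 16.8%, 14.2% and 13.5% in controls, and the groups did not overlap, but its usage did not pass (limma diffSplice adjusted p = 0.485). NM_001330351 lay the other way, with 17.8%, 14.5% and 12% in co-treated libraries against 9.99%, 11.7% and 10.8% in controls (limma diffSplice adjusted p = 0.406). For TPM2 the main transcript Tpm2.1, NM_213674, had 54.1%, 55.8% and 62.4% of counts in co-treated libraries and 57.9%, 48.9% and 51.8% in controls, with the groups overlapping. Among TPM2 transcripts with at least 5% of counts in either group, the groups did not overlap in 2 predicted ones. How often shares do not overlap over all transcripts was not counted, so this is a description only. XM_017015092 had 0%, 0.674% and 2.44% of its counts in co-treated libraries against 6.61%, 4.46% and 7.27% in controls (limma diffSplice adjusted p = 0.444), and XM_017015088 had 7.89%, 6.60% and 10.5% in co-treated libraries against 2.30%, 6.41% and 2.47% in controls (limma diffSplice adjusted p = 0.605).

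None of the 9 genes tested for usage was called by limma's diffSplice, against 232 of 9981 genes overall (2.32%). The lowest adjusted p of the 9 was that of TPM4 (limma diffSplice adjusted p = 0.12). Its transcript NM_001367836 had 1.42%, 17.9% and 0.0636% of TPM4 counts in co-treated libraries, against 7.07%, 18.2% and 13.2% in controls. Co-treated library 2 was as high as the controls while the others were far lower. TPM4 counts came from several starts, and their shares scattered as widely within a group as between groups. The group of starts at chr19:16078806-16078852 held 47.8%, 37.8% and 37.1% of counts in co-treated libraries and 21.8%, 25.0% and 51.0% in controls, and the start at chr19:16067507-16067538, whose window holds the CArG box of TPM4, held 25.0%, 38.6% and 31.0% in co-treated libraries and 41.6%, 45.4% and 28.0% in controls. Control library 3 lay above every co-treated library for the first of these and among the co-treated libraries for the second, apart from the other controls each time.

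**Figure D4:**
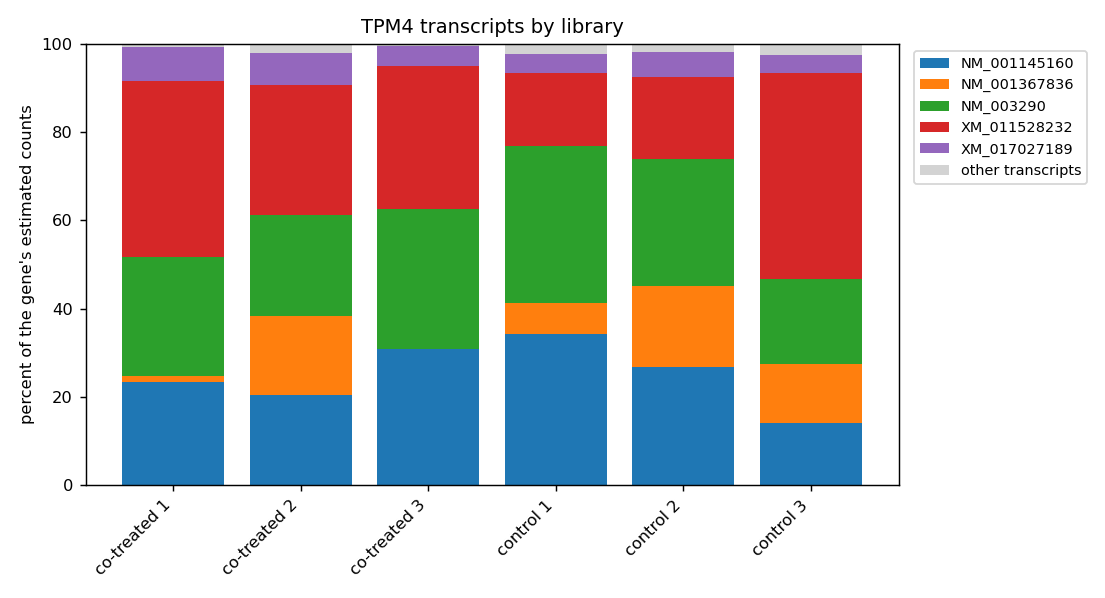
Share of TPM4's estimated counts (percent, vertical axis) held by each transcript with at least 5% in either group, stacked, in 3 co-treated and 3 control libraries. NM_001367836 (second from the bottom) ranges from 0.0636% to 17.9% among co-treated libraries, and XM_011528232 from 16.5% to 46.8% among controls, so the libraries of 1 group differ from each other as much as the groups do.

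Other genes of the pathway did not move as a block, as read from 6 lists beside 17.1% lower and 16.6% higher over all genes tested. Of 8 SRF cofactors 7 were tested, 2 were higher and 1 lower. ELK4, a ternary complex factor, had 78.8 ± 3.54 CPM in co-treated cells and 67.5 ± 5.64 CPM in controls (log2 fold change 0.22 ± 0.06, edgeR adjusted p = 0.0181). MRTFB had 49.9 ± 1.45 CPM in co-treated cells and 43.1 ± 3.45 CPM in controls (0.21 ± 0.06, edgeR adjusted p = 0.0205). Both calls rested on single libraries: ELK4 was lost without control library 1 (adjusted p 0.0523), control library 3 (0.0651) or co-treated library 1 (0.0566), MRTFB without control library 2 (0.0685), control library 3 (0.0772), co-treated library 1 (0.0514) or co-treated library 3 (0.0685), and both with the length trend removed. FHL2, a LIM protein that binds SRF, had 27.0 ± 2.45 CPM in co-treated cells and 36.3 ± 0.787 CPM in controls (-0.42 ± 0.07, edgeR adjusted p = 0.000949). The call of FHL2 was lost on log2(TPM units + 1) without the filter on low values (limma adjusted p = 0.12). In TPM units its groups overlapped, with 33.8 in co-treated library 3 and 33.0 in control library 3. MRTFA, the other actin-regulated cofactor, had 31.3 ± 0.346 CPM in co-treated cells and 30.7 ± 0.576 CPM in controls and did not pass, and MYOCD, the cofactor of smooth and heart muscle, was at 0 in all 6 libraries.

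Of 13 actins and proteins that handle actin monomers, 11 were tested, 4 were lower and 1 higher, with a median of -0.12. PFN1 and PFN2, the profilins that feed monomers to growing filaments, had 622 ± 45.4 and 133.3 ± 7.72 CPM in co-treated cells, against 778.9 ± 37.1 and 170.6 ± 5.70 CPM in controls (log2 fold changes -0.32 ± 0.06 and -0.36 ± 0.05, edgeR adjusted p = 0.00165 and 0.000498). ACTB had 3523 ± 243 CPM in co-treated cells and 4182 ± 190 CPM in controls (-0.25 ± 0.05, edgeR adjusted p = 0.00415), a call lost on the scale of TPM units. GSN, gelsolin, which cuts filaments, was the gene that rose, with 35.8 ± 2.02 CPM in co-treated cells and 24.1 ± 2.1 CPM in controls (0.58 ± 0.07, edgeR adjusted p = 0.000221).

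All 24 stress fibre and adhesion genes were tested, and 10 were lower and 4 higher, with a median of -0.09. On log2(TPM units + 1) there were 6 lower and 6 higher, beside 8.09% lower and 27.3% higher over all genes tested on that scale. LIMA1, which bundles filaments, had 132.0 ± 6.91 CPM in co-treated cells and 207.0 ± 1.56 CPM in controls (-0.65 ± 0.05, edgeR adjusted p = 8.91e-06). TNS1, a tensin of adhesions, had 60.6 ± 1.85 CPM in co-treated cells and 88.8 ± 1.46 CPM in controls (-0.55 ± 0.04, edgeR adjusted p = 1.78e-05). The scarce FHL1 had 0.681 ± 0.271 CPM in co-treated cells and 1.48 ± 0.298 CPM in controls (-1.13 ± 0.28, edgeR adjusted p = 0.00938). PDLIM5 and SVIL rose, PDLIM5 with 182.3 ± 5.72 CPM in co-treated cells and 141.1 ± 8.13 CPM in controls and SVIL, supervillin, with 139.5 ± 8.72 CPM in co-treated cells and 106.2 ± 1.86 CPM in controls (edgeR adjusted p = 0.000388 and 0.000264).

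Among 21 genes of myosin II and its control, 20 were tested, 7 were lower and 3 higher, with a median of -0.11. With library size alone 5 were lower and 6 higher, beside 12.5% lower and 23% higher over all genes tested. On log2(TPM units + 1) 1 was lower and 6 higher, beside 8.09% lower and 27.3% higher over all genes. LIMK1 and LIMK2, kinases that switch off the filament-cutting protein cofilin, had 68.4 ± 5.98 and 36.4 ± 1.37 CPM in co-treated cells, against 85.5 ± 1.45 and 43.7 ± 0.697 CPM in controls (edgeR adjusted p = 0.00238 and 0.0024). On log2(TPM units + 1) the call of LIMK2 was lost (log2 fold change -0.13, limma adjusted p = 0.108), and that of LIMK1 was lost without the filter on low values (limma adjusted p = 0.0774). MYL12A, a non-muscle relative of MYL9, had 120.4 ± 4.81 CPM in co-treated cells and 138.6 ± 7.64 CPM in controls (edgeR adjusted p = 0.0115), a call lost without co-treated library 3 (0.0519), with the length trend removed (0.377) and on log2(TPM units + 1) (log2 fold change -0.07, limma adjusted p = 0.318). RHOB, a small GTPase, rose, with 28.9 ± 1.51 CPM in co-treated cells and 20.8 ± 1.44 CPM in controls (0.47 ± 0.07, edgeR adjusted p = 0.000488). ROCK1, a kinase that activates myosin II, had 113.7 ± 14.8 CPM in co-treated cells and 90.4 ± 12.8 CPM in controls (edgeR adjusted p = 0.0289), but its groups overlapped and its call was lost without control library 2 (0.105), control library 3 (0.106), co-treated library 1 (0.100) or co-treated library 2 (0.0544).

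The immediate early targets of SRF lay mostly on the opposite side. All 9 were tested, 5 were higher and none lower, with a median of 0.38. The scarce EGR3 lay below 0 (log2 fold change -0.20) and did not pass. On log2(TPM units + 1) 6 were higher, beside 27.3% over all genes tested on that scale. Without the filter on low values 3 were higher, and the call of FOS was lost (limma adjusted p = 0.0578). FOS had 6.09 ± 2.04 CPM in co-treated cells and 2.93 ± 0.723 CPM in controls (1.06 ± 0.23, edgeR adjusted p = 0.00462), and JUNB had 29.3 ± 2.26 CPM in co-treated cells and 18.7 ± 0.952 CPM in controls (0.64 ± 0.07, edgeR adjusted p = 0.000107). NR4A1, a nuclear receptor, had 3.59 ± 0.0374 CPM in co-treated cells and 2.55 ± 0.193 CPM in controls (0.49 ± 0.11, edgeR adjusted p = 0.00669). EGR1 and MCL1 were the other 2 that rose. These genes and the contractile genes share SRF as a known regulator, and within the same libraries the first had more calls upward and the second more downward.

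Of 5 targets that SRF shares with the factor YAP, 2 were lower and 1 higher. CCN1, a secreted matrix protein, had 924.5 ± 17.8 CPM in co-treated cells and 1204 ± 68.1 CPM in controls (-0.38 ± 0.05, edgeR adjusted p = 0.000198). ANKRD1 rose, with 93.6 ± 2.96 CPM in co-treated cells and 76.0 ± 3.96 CPM in controls (0.30 ± 0.05, edgeR adjusted p = 0.00117).

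**Figure D5:**
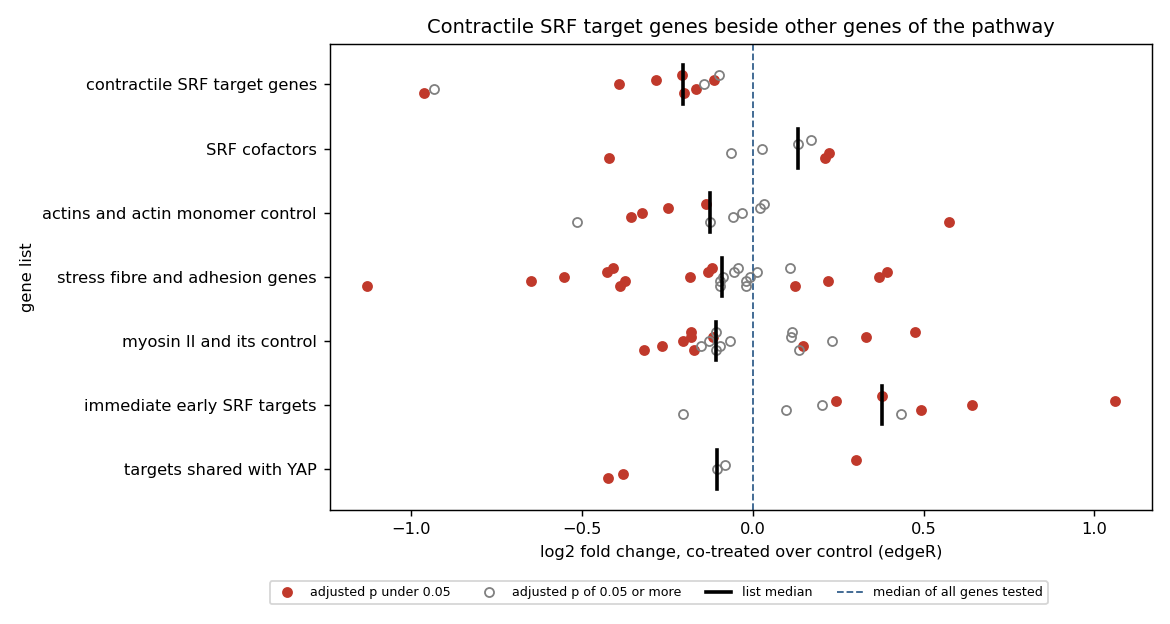
Log2 fold changes, co-treated over control (horizontal axis), of the contractile SRF target genes (top row) and of 6 other lists of the pathway; filled points passed the threshold, open points did not, black bars are list medians and the dashed line is the median of all genes tested. The contractile genes all lie below 0 with a median of -0.20, the immediate early targets have a median of 0.38, and the other lists hold genes on each side.

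As a description of the pattern of TAGLN, the gene of the group with the largest called change, genes with at least 5 CPM in either group were ranked by Pearson's correlation of log2(CPM + 0.5) with it over the 6 libraries. The 5 highest among 10985 genes were EIF2B1 (r = 0.9992), CDH4 (0.9985), PSMB7 (0.9985), MEAK7 (0.9985) and RAP1GAP2 (0.9979). The 6 points fall in the 2 groups, so r mostly follows the difference between the groups and is given as a description.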

How the data were processed

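RNA from 6 MDA-MB-231/RR libraries was compared, 3 co-treated and 3 control, with groups from the sample titles; the column prefix Mo was read as melatonin plus oTR, a reading the labels do not spell out. Trimmomatic 0.38, HISAT2 2.1.0, Bowtie2, SAMtools 1.9, StringTie 2.1.3b and the build GRCh38 are named, without roles, per the submitters' processing notes. The authors deposited estimated counts as whole numbers, FPKM and TPM for genes and transcripts, per the file headers; gene counts equalled the sum of transcript counts in all 46427 genes. FPKM was not used for any result. Because these are estimates, intervals cover less than the whole error.

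Genes passing filterByExpr (minimum count 10) were tested with edgeR 4.0.16 in R 4.3.3 (quasi-likelihood test, relative log expression factors, Benjamini-Hochberg adjustment, threshold 0.05); CPM uses the same factors. Transcripts with at least 10 counts in 3 libraries were tested with limma 3.58.1 (voom, diffSplice). Both were tested on simulated data. Within groups, libraries differed beyond sampling noise (chi-square over degrees of freedom between 11.6 and 19.5), and none was treated as a duplicate. Gene coordinates span the deposited transcripts. Promoters came from RefSeq tables, which held 8 of the 10 genes.

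The rule named all 10 members and the 5 genes most like TAGLN. From each companion list it took called genes with the largest change, at 1 CPM or more. These were up to 3 in the direction with more calls and up to 2 in the other. It also took transcripts with at least 5% of a gene, of which only a part are given here. EGR1, MCL1 and MRTFA were named after their values were seen, as were MYOCD, NM_001613 of ACTA2 and the line markers given as levels. A result that the rule names is not reported here. The members and lists were chosen with earlier results of these data known. As alternatives, each library was left out, a replicate block was added, a length trend was removed, and TMM, library sizes without factors, DESeq2 1.42.0, voom, other filters and limma on TPM were used. Figures used matplotlib 3.10.9.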

Additional observations from a re-analysis of the deposited data

How the results depend on the processing

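Of the fold changes of single members under the alternatives, 137 kept their direction and their side of the threshold, 30 lost the call and 1 reversed: ACTA2 had a log2 fold change of 0.043 without control replicate 3, and -0.343 to 0.043 over all 6 fits that left out a library. The number of members lower in co-treated cells was 7 in the main fit, 4 with library size alone and 2 in each of the 3 fits on the TPM scale, and 5 to 6 when 1 library was left out. Their median log2 fold change, -0.20, was -0.15 with library size alone, -0.070 on log2(TPM + 1) with and without a filter, -0.072 on log2(TPM + 0.1), and -0.28 to -0.19 with a library left out. Over all genes, 2835 were lower and 2743 higher in the main fit. Limma on log2(TPM + 1) gave 1339 lower and 4516 higher, log2(TPM + 0.1) 1338 lower and 4490 higher, and log2(TPM + 1) without a filter 968 lower and 3210 higher; with a library left out the counts were 2158 to 2469 lower and 2065 to 2357 higher. In the 6 companion lists together 24 genes were lower, against 12, 12 and 9 in these TPM fits and 17 to 24 with a library left out. In the same lists 16 were higher, against 23, 23 and 15 in the TPM fits and 11 to 14 with a library left out. Library size alone gave 18 lower and 22 higher in these lists, beside 12.5% lower and 23% higher over all genes tested. The balance of these lists thus turned round with the scale, as did that over all genes. No member transcript and no member's usage was called under any setting. Replicates with the same number did not deviate together (correlations 0.07, 0.00 and -0.04), and with the replicate number as a block 7 members were lower, as without it, beside 3190 lower and 3177 higher over all genes.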
